A study of Mus musculus with 8 samples.

Results

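The 38 genes described here encode enzymes of mitochondrial fatty acid oxidation and of the citrate cycle. They were taken as a named list, with 23 genes of fatty acid oxidation and 15 of the citrate cycle and its entry steps, out of 21000 mouse genes with a RefSeq mRNA. Dot1L is a methyltransferase of histone H3, and the study compared open chromatin in brown adipose tissue (BAT) of mice with and without it. In ATAC-seq, a transposase cuts DNA that nucleosomes leave bare and tags it for sequencing, so that reads gather over open chromatin. There were 2 WT and 2 Dot1L-BKO libraries, each from the BAT nuclei of a separate mouse. Dot1L-BKO mice carried floxed Dot1l and a Cre driven by the Ucp1 promoter, so that cells of BAT without Ucp1 kept the gene. All mice were fed chow, were 12 weeks of age and spent 4 hours at 4 C before the tissue was taken.

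The values come from one deposited list of 32173 peak summits, a summit being the highest point of a peak. Each summit has a score, the −log10 of its MACS2 q-value. The list was named WT against Dot1L-BKO, and which libraries served as treatment or control is not known here. If the libraries of one genotype were the control, a summit marks signal of the other genotype over it and not open chromatin of the 4 libraries together. It holds no value for any single library, so that depth is unknown, no replicate error exists, and the genotypes could not be compared. Scores rank the summits within this list and are not a level of accessibility in WT or in Dot1L-BKO mice. BAT was taken as bulk tissue, in which cell numbers and accessibility per cell cannot be told apart. Of 12 adipocyte genes, 9 typical of brown fat and Adipoq, Plin1 and Fabp4 shared with white fat, 11 had a summit within 1 kb of a transcription start site (TSS), and Adrb3 did not. The counts were 1 of 4 for endothelium, 1 of 4 for macrophages and leukocytes, 0 of 6 for skeletal muscle and 1 of 4 for hepatocytes.

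Brown adipocytes burn fatty acids to make heat. Fatty acids are joined to coenzyme A, carried into the mitochondrion as carnitine esters and shortened in a repeated spiral that yields acetyl-CoA and reduced cofactors. The citrate cycle oxidizes the acetyl-CoA, and the electrons of both pathways feed the respiratory chain that Ucp1 uncouples.

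Nearly every one of the 38 genes had a summit at its promoter. A summit lay within 1 kb of a TSS in 37 of 38 genes (97.4%), beside 45.2% of all genes. The exception was Suclg1, a subunit of succinyl-CoA ligase. With a score of at least 10, the count was 26 of 38 (68.4%) beside 23.5% of all genes. A window of 1 kb upstream to 100 bp downstream left 25 of 38, and no share of all genes is given for it. The median score of the strongest promoter summit was 20.7 over the 37 genes and 10.7 over all 9485 genes with such a summit. The 37 genes had 36 strongest summits between them, because Hadha and Hadhb share one. Genes are not replicates, and these counts describe the list alone.

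**Figure D1:**
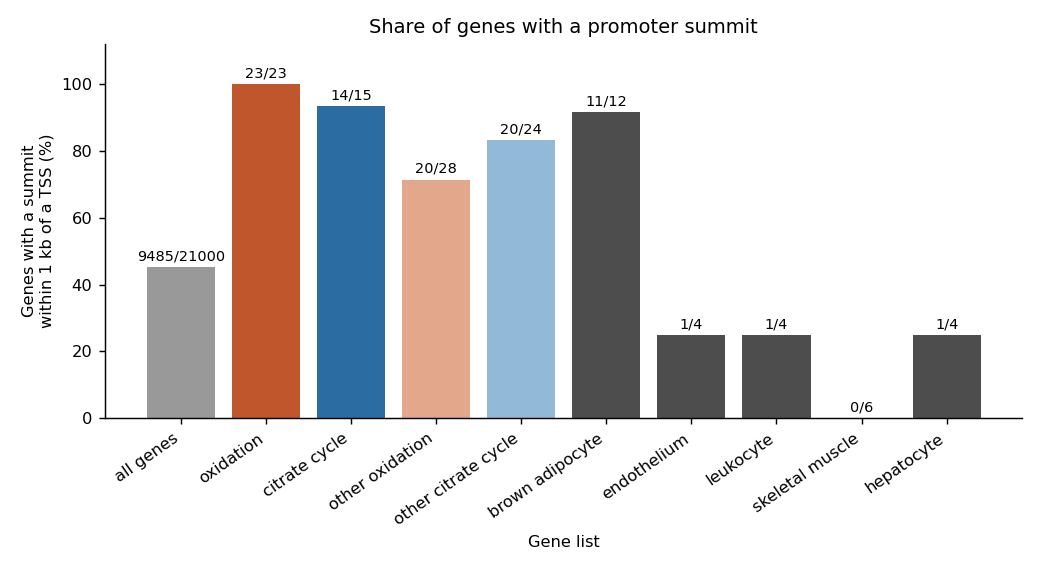
Share of genes with a summit within 1 kb of a TSS, in percent, for all genes, the 2 groups of 23 and 15 genes, other genes of the same pathways and marker lists of 5 cell types. The numbers over the bars are genes with a summit and genes in the list, and both pathways and the adipocyte genes (labelled brown adipocyte, with Adipoq, Plin1 and Fabp4 among them) stand above all genes, with 0 of 6 markers of skeletal muscle.

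The DNA under a few of these summits is given as examples. Shown are 101 bases centred on the promoter summit (mm10, written 5′ to 3′ on the strand of the gene), for the genes with the highest scores and the gene with the lowest in each group. Windows that reach into a UTR were passed over for the next in order. Pdhb, the highest citrate cycle gene, was passed over as well, though its summit lay outside its RefSeq mRNA, 236 bp upstream. Capitals mark a match to one of the motifs described further on, with 5 windows holding none in capitals.
Acadm, score 121, minus strand, chr3:153944656-153944756: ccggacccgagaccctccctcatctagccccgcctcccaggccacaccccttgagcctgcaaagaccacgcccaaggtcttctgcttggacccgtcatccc
Acsl1, score 90.5, plus strand, chr8:46470359-46470459: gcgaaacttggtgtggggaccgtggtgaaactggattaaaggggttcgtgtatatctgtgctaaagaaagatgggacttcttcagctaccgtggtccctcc
Etfdh, score 84.1, minus strand, chr3:79628805-79628905: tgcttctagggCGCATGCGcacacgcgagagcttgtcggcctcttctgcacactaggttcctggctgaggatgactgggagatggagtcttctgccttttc
Acot2, score 4.21, plus strand, chr12:83987689-83987789: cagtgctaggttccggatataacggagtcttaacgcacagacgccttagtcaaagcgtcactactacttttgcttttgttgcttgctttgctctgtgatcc
Pcx, score 52.8, plus strand, chr19:4510315-4510415: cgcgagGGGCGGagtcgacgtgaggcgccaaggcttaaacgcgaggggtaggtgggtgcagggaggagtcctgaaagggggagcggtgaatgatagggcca
Mdh2, score 51.9, plus strand, chr5:135778501-135778601: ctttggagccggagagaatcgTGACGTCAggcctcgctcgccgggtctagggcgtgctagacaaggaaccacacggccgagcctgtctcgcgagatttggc
Cs, score 30.9, plus strand, chr10:128337562-128337662: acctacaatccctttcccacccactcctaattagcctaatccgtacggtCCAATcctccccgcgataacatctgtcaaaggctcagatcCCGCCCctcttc
Idh3b, score 3.58, minus strand, chr2:130284170-130284270: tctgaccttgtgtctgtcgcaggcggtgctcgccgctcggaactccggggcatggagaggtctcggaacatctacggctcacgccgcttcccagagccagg
Hadhb, score 31.7, plus strand, chr5:30155043-30155143: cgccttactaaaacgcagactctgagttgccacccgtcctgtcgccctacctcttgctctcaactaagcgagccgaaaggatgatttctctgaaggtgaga
The Hadhb window is also the Hadha promoter, read on the other strand.

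Among oxidation genes the scores ran from 4.16 to 121, with quartiles of 11.0 and 41.6. The genes that join fatty acids to coenzyme A, or free them from it, lay far apart. Acsl1, a long-chain acyl-CoA synthetase, had a promoter summit of 90.5 at 628 bp upstream of its first TSS and another of 14.0 at 81 bp past its second TSS. Acsl5, of the same family, had 4.16 at 674 bp downstream, in exon 1, the lowest of the group. Acot2, a mitochondrial thioesterase that frees fatty acids from coenzyme A, had 4.21 at 122 bp upstream. Its close paralog Acot1 had 4.16, and how reads that fit both genes were counted is not stated.

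In the carnitine shuttle, Cpt1b, the muscle and brown fat form of the enzyme that commits fatty acids to mitochondria, had 54.7 at 172 bp upstream. Cpt1a, the liver form, had 12.2 at 274 bp downstream. Cpt2, on the inner membrane, had 33.0 at 50 bp upstream. Crat, carnitine acetyltransferase, had 49.1 at 188 bp downstream, in the 5′ UTR of exon 1 and 490 bp upstream of Ptpa. All 4 genes were past a score of 10. Another summit of 51.9 lay 4135 bp upstream of Cpt1b, at the promoter of the neighbouring gene Chkb.

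The acyl-CoA dehydrogenases open the spiral, each for a range of chain lengths. Acadm, for medium chains, had the highest promoter score of the 38 genes, 121 at 63 bp upstream, which ranked 30 among the 32173 summits and 6 among all genes with a promoter summit. Acadl, for long chains, had 36.9 at 382 bp downstream in intron 1. Acadvl, for very long chains, had 15.4 at 456 bp downstream in intron 2. Acads, for short chains, had 9.78 at 264 bp downstream in intron 1. Acadm was thus the only one of the 4 with its summit upstream of the TSS.

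The electrons taken by these dehydrogenases pass to the electron transfer flavoprotein and then to its oxidoreductase, Etfdh. Etfdh had 84.1 at 88 bp upstream, in a window that also lies 224 bp upstream of 4930579G24Rik. The flavoprotein subunits Etfa and Etfb had 34.2 at 30 bp downstream and 29.3 at 89 bp upstream. All 3 genes stood above the third quartile of all genes, 20.9.

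For the later steps of the spiral, Hadha and Hadhb, the subunits of the trifunctional protein, lie head to head and had a single summit of 31.7 between them. It was 113 bp upstream of Hadha and 160 bp upstream of Hadhb. Acaa2, a thiolase, had 46.4 at 15 bp upstream. Echs1, the short-chain hydratase, had 20.7 at 616 bp downstream. Hadh, the short-chain dehydrogenase, had 7.39 at 700 bp downstream, the farthest from a TSS of all 37 summits, and Acat1, acetoacetyl-CoA thiolase, had 9.78 at 30 bp upstream. Enzymes for unsaturated chains had lower scores than the trifunctional protein. Eci1, Decr1 and Eci2 had 16.7, 12.8 and 8.49.

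Among citrate cycle genes the scores ran from 3.58 to 94.9, with quartiles of 7.59 and 51.9. The range overlapped that of the oxidation genes almost throughout. Of the entry steps, Pdhb, a subunit of the E1 enzyme of pyruvate dehydrogenase, had the highest score of the group, 94.9 at 236 bp upstream. Dlat and Dld, the E2 and E3 enzymes of that complex, had 13.3 at 103 bp and 13.4 at 422 bp downstream. Pcx, pyruvate carboxylase, which makes oxaloacetate, had 52.8 at 107 bp upstream. All 4 genes were past a score of 10.

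From citrate to succinyl-CoA, Cs, citrate synthase, had 30.9 at 115 bp upstream. Subunits of one enzyme stood apart here. Of isocitrate dehydrogenase 3, Idh3a had 19.4 at 184 bp downstream in intron 1, and Idh3b had 3.58 at 231 bp downstream, in the coding part of exon 2. Idh2, the NADP-dependent enzyme, had 9.21 at 42 bp upstream. Of the 2-oxoglutarate dehydrogenase complex, Ogdh (E1) had 51.9 at 66 bp downstream and Dlst (E2) had 7.05 at 483 bp downstream. Dlst was the only one of the 38 genes with 3 promoter summits, the others of 4.61 and 1.49.

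The succinyl-CoA ligase genes stood below the first quartile of the citrate cycle group, 7.59, or had no promoter summit. Sucla2 and Suclg2, the subunits that set the use of ATP or GTP, had 6.53 at 2 bp and 5.54 at 307 bp downstream. Suclg1, the subunit that both forms share, had no summit within 10 kb of its TSS or in its 28.4 kb gene body (chr6:73248505-73276907, plus strand). The summit nearest to it lay 26751 bp upstream, with a score of 18.4. The last steps were higher, with 52.8 at 52 bp downstream of Fh1, fumarase, and 51.9 at 98 bp upstream of Mdh2, malate dehydrogenase, in a window 166 bp upstream of Styxl1. Scores can be equal, as those of Fh1 and Pcx are, and the reason was not examined.

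**Figure D2:**
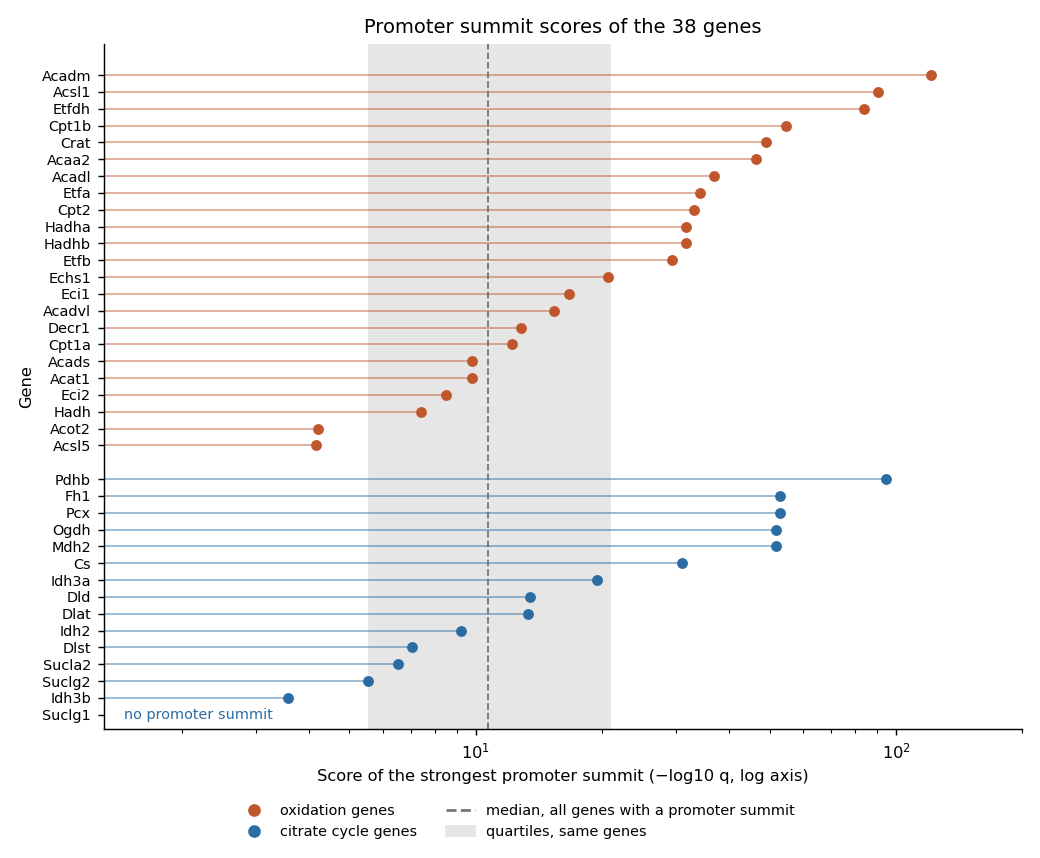
Score of the strongest summit within 1 kb of a TSS (−log10 q, log axis) for each of the 38 genes, oxidation genes above and citrate cycle genes below, with the median (dashed line) and quartiles (band) of all 9485 genes with such a summit. Acadm at 121 and Pdhb at 94.9 lead their groups, and Suclg1 has no promoter summit.

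Set against each other, the pathways differed little in how many promoters were in the list. The counts were 23 of 23 oxidation genes (100%) and 14 of 15 citrate cycle genes (93.3%). Past a score of 10, they were 17 of 23 (73.9%) and 9 of 15 (60.0%). The median score was 29.3 for oxidation genes and 16.4 for citrate cycle genes, a difference of 12.8. The direction of that difference rested on the settings. Counting only summits with a score of at least 10 turned it to -18.9, and a window of 1 kb upstream to 100 bp downstream turned it to -9.69. Leaving out summits that also lie within 1 kb of the TSS of another gene lowered it to 3.26. No order of the pathways by promoter score can be read from this list.

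Wider windows took in the promoter and the DNA around it. Within 10 kb of a TSS, 37 of 38 genes had a summit beside 53.9% of all genes. The mean number of summits per gene there was 3.78 for oxidation genes, 1.93 for citrate cycle genes and 1.22 for all genes, while the median was 2 for both pathways. The highest counts were 17 at Acsl1, 10 at Acadvl and 9 at Cpt1b, all oxidation genes. The count of Acsl1, which enters the mean, is over windows around 2 TSSs and so over more DNA than around 1. A summit lay in the gene body in 31 of 38 genes (81.6%) beside 39.7% of all genes, with 19 of 23 oxidation and 12 of 15 citrate cycle genes. Leaving out what lies within 1 kb of a TSS, 17 of 23 oxidation genes (73.9%) and 6 of 15 citrate cycle genes (40.0%) still had one, beside 24.6% of all genes. Per 10 kb of gene body there were 1.50 summits in oxidation genes, 0.503 in citrate cycle genes and 0.190 in all genes. In the other genes of these pathways, listed further on, the densities were 0.475 for oxidation and 0.356 for the citrate cycle. The difference between the pathways was not tested, since no test over genes was made.

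**Figure D3:**
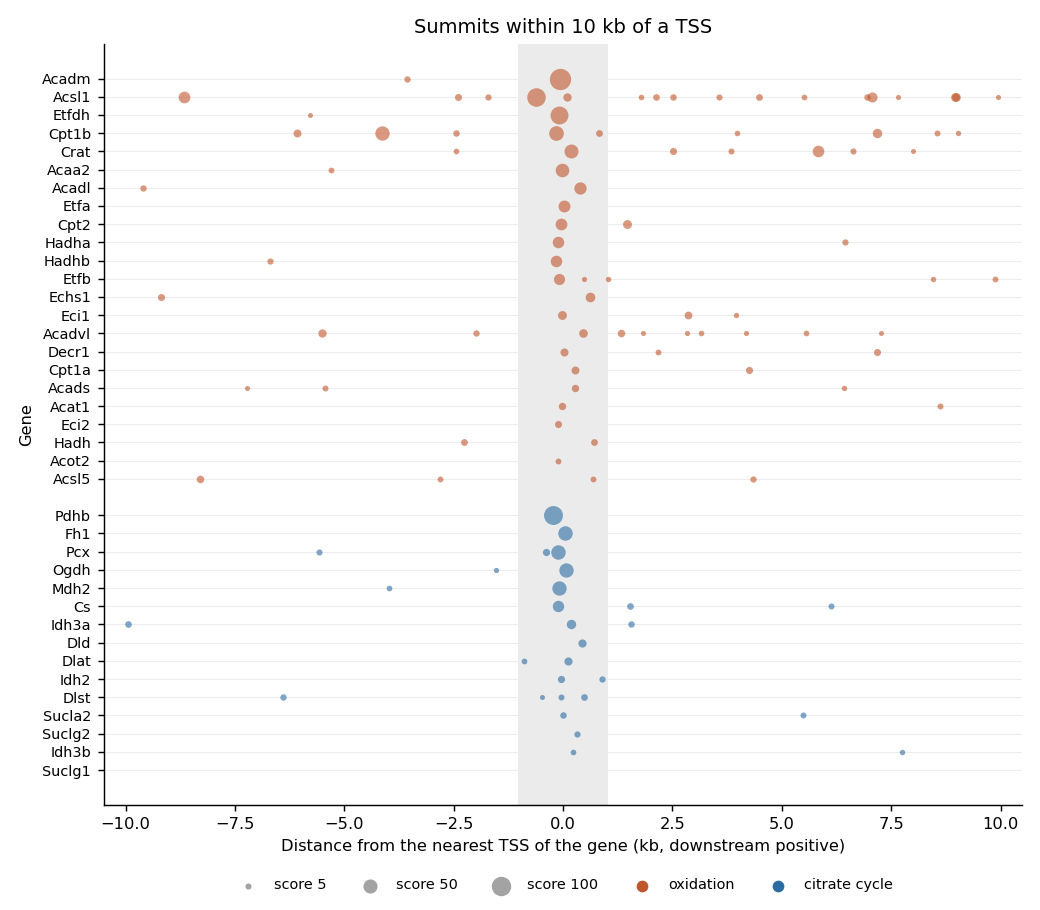
Distance of every summit within 10 kb from the nearest TSS of its gene (kb, downstream positive), 1 row per gene, with the area of a point growing with the score and the grey band marking 1 kb on each side. Summits gather in the band, while Acsl1, Acadvl and Cpt1b have many outside it, more of them downstream, and Suclg1 has no summit.

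A single gene, Acsl1 (chr8:46471037-46536051, plus strand), held 35 of the 92 gene-body summits of the oxidation group, and the other 22 genes held 57. Without Acsl1 the density was 1.04 per 10 kb, and without Pcx, which held 14 of the 34 of the citrate cycle group, that group had 0.354. Without Suclg2, a long gene with 2 summits, the citrate cycle group had 0.743, so that the size of the gap rested on single genes. Of all 21000 genes, 9 had at least as many gene-body summits as Acsl1, itself included. Per length it stood out less, with 5.38 per 10 kb, a density that 487 genes reached, itself included. Its 17 summits within 10 kb of a TSS were matched or passed in 4 genes, itself included. Acsl1 was searched around 2 distant TSSs, which is more DNA than around 1, and this rank takes no account of that. The scores of its gene-body summits ran from 1.41 to 32.9, with a median of 5.55, and 6 of the 35 were past a score of 10. By place, 32 lay in introns, 10 of them in intron 2, and 3 in exons. The strongest, of 32.9, lay in intron 1, 8665 bp upstream of the second TSS, and one of 23.1 lay 7061 bp downstream of the first. The 2 TSSs lie 19929 bp apart.

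**Figure D4:**
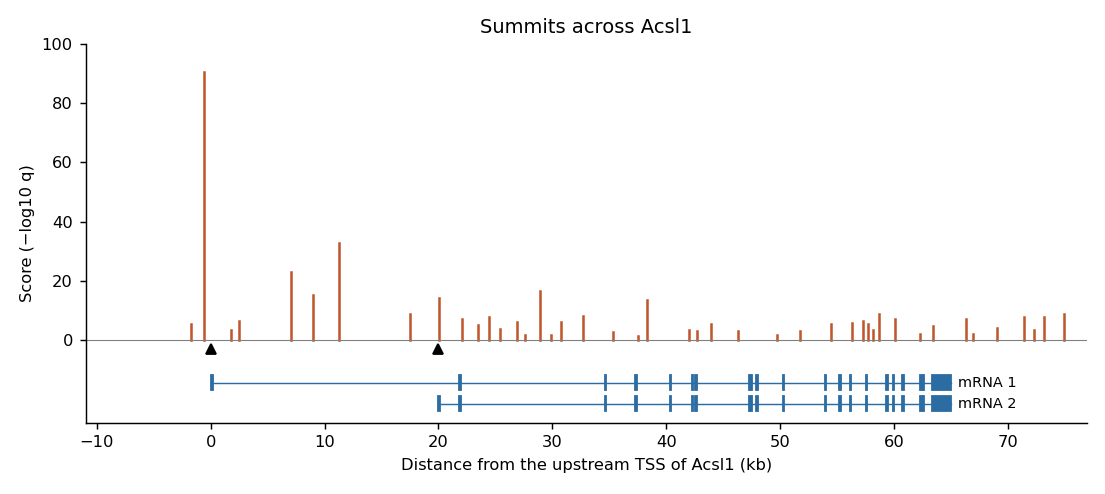
Summits across Acsl1, each a line with its score (−log10 q) as height, against the distance from the upstream TSS in kb; triangles mark the 2 TSSs and boxes the exons of the 2 mRNAs. The summit of 90.5 stands just upstream of the first TSS, and the 35 gene-body summits run through the whole gene with a highest score of 32.9.

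Acadvl was denser for its size, with 6 summits in a 5.25 kb gene, or 11.4 per 10 kb, and 10 within 10 kb of its TSS. At that density or above stood 58 of all genes, Acadvl included. Most of its gene-body summits were weak, and the strongest past the promoter was 10.4 at 1329 bp downstream in intron 6. Cpt1b had 9 summits within 10 kb, among them 19.4 at 7181 bp downstream in intron 16. Crat had 9 gene-body summits, the strongest away from the promoter being 32.5 at 5817 bp downstream in intron 3. Hadha had 9, all more than 1 kb from its TSS, led by 19.4 at 19036 bp downstream in intron 7.

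A gene with a weak promoter summit could carry a stronger one in its body. Hadh had 7.39 at its promoter and 22.4 at 25428 bp downstream in intron 3. Dlst had 7.05 at its promoter and 22.4 at 18908 bp downstream in intron 11. Acsl5, at the foot of the oxidation group, had 4.16 at its promoter and 5.55 at 4351 bp downstream in intron 1. By contrast 7 genes had no summit in the body, namely Etfdh, Eci2, Acaa2, Acot2, Suclg1, Mdh2 and Pdhb, of which Pdhb and Etfdh were among the highest promoters. Long genes could hold few, since Suclg2, with 246 kb the longest of the 38, had 2 and Ogdh, with 67.5 kb, had 1.

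**Figure D5:**
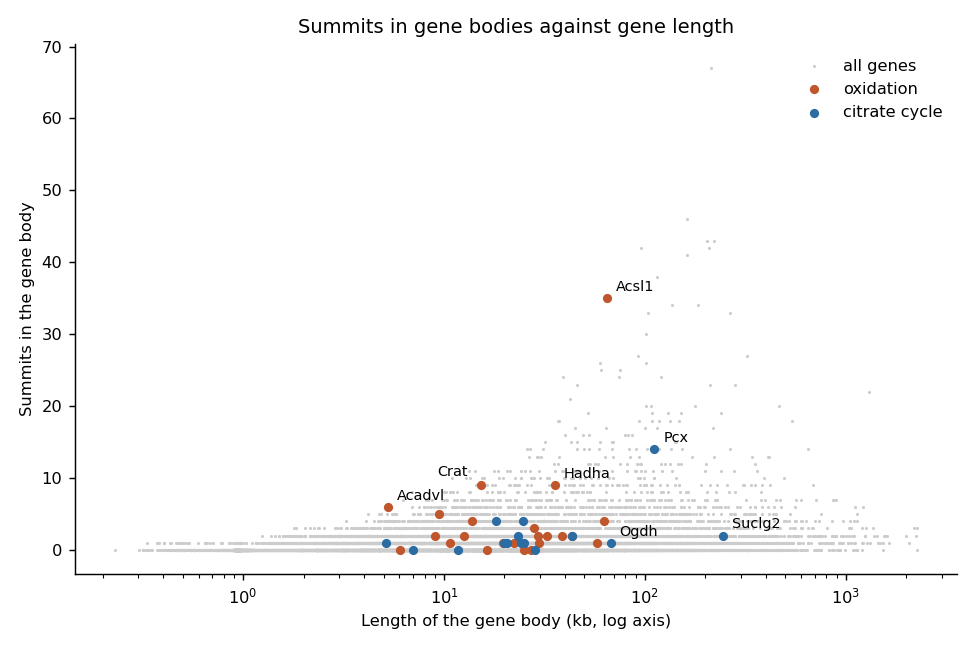
Number of summits in the gene body against its length (kb, log axis) for all 21000 genes in grey and for the oxidation and citrate cycle genes in colour. Acsl1 stands apart with 35 summits in 65.0 kb, while Suclg2 has 2 in 246 kb.

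The strongest promoter summits lay about as near to the TSS as those of other genes, with a median distance of 118 bp beside 143 bp over all genes with a promoter summit. Counted by gene, with the shared summit of Hadha and Hadhb entering for both, 14 of 37 (37.8%) were within 100 bp. The share was 38.2% of all genes with a promoter summit. By side, 18 were upstream and 19 downstream. Outside the transcript of the gene lay 18, with 8 in exon 1, 1 in another exon and 10 in introns. More than 1 promoter summit was found in 7 of 38 genes (18.4%), beside 8.08% of all genes. Among genes with a promoter summit the shares were near each other, 18.9% and 17.9%. The 7 genes were Cpt1b, Etfb, Acsl1, Idh2, Dlst, Dlat and Pcx. A strong summit can arise from copies of mitochondrial DNA in the nuclear genome, and of 170 windows of 1001 bp around the summits in or near the 38 genes, 0 matched the mitochondrial genome (blastn, e-value of at most 1e-10).

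Promoters rich in CpG are often open in any tissue, so the promoter class is given beside the counts. A promoter was called CpG-rich where, from 250 bp before to 50 bp after a TSS, at least 50% of bases were G or C and the observed over expected CpG was at least 0.6. In 26 of the 38 genes (68.4%) it was, beside 46.7% of all genes, and 25 of the 26 (96.2%) had a promoter summit, beside 72.9% of all CpG-rich genes. Of the 12 other genes, 12 had a promoter summit, beside 20.8% of all genes of that class. They include Acadm, with an observed over expected CpG of 0.459, and Cpt1b, the lowest of the 12, with 0.202. Others lay just under the limit, such as Acads with 0.579 and Hadh and Idh2 with 0.571. Dld, with 1.14, missed the class only by its 47.0% of G or C. The 12 are thus not all poor in CpG. CpG-rich promoters were 14 of 23 (60.9%) among oxidation genes and 12 of 15 (80.0%) among citrate cycle genes.

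Short motifs were looked for in the same promoter windows, on both strands unless stated. The SP box GGGCGG was present in 29 of 38 genes (76.3%) beside 47.9% of all promoters, and the CCAAT box of NFY in 20 (52.6%) beside 38.9%. The NRF1 core CGCATGCG was in Acadm, Etfdh and Idh3a (2.48% of all), and the CREB site TGACGTCA was in Ogdh and Mdh2 (2.54%). The ETS letters CCGGAAGT were in Cpt2, Decr1 and Dlst (5.34%). TATAAA, searched on the strand of the gene, was in 0 of 38 beside 8.83%. These shares were not matched for CpG class, and CpG-rich promoters are more frequent among the 38 genes than among all genes. In 150 bp on each side of the strongest promoter summits, counted by gene, the SP box was in 28 of 37 (75.7%). Of all 10375 promoter summits, 57.1% had it. The CCAAT box was in 14 (37.8%) beside 34.6%, a share near the background. The sets are unlike, since all promoter summits include those that are not the strongest of their gene. The summit shared by Hadha and Hadhb also counts for both genes. A match describes the letters only, and no match says nothing of the factor.

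Nuclear receptors are known regulators of these pathways, and their exact letters were rare. The ERR half-site TCAAGGTCA was in 0 of 38 promoters (0.367% of all), and the PPAR/RXR core AGGTCAAAG, which shares AGGTCA with it, was in Sucla2 alone (0.371%). In the summit windows, the ERR letters were found at Idh3a (0.472% of all promoter summits) and the PPAR/RXR letters at Hadh (0.308%). In the windows printed above, the NRF1 core lies in Etfdh, the CREB site in Mdh2, the SP box in Pcx and Cs, and the CCAAT box in Cs.

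Other genes of the pathways, fixed as a list by name, were also mostly marked. Of 28 further genes of fatty acid oxidation, 20 (71.4%) had a promoter summit, beside 45.2% of all genes. Their median score of 10.7 was that of all genes with a promoter summit, and 11 (39.3%) were past a score of 10, beside 23.5%. Of 24 further genes of the citrate cycle and pyruvate use, 20 (83.3%) had one, with a median of 23.5, and 18 (75.0%) were past 10. The highest were Mpc2, a subunit of the mitochondrial pyruvate carrier, with 91.6, Aco1, the cytosolic aconitase, with 90.8, and Slc22a5, the carnitine transporter of the plasma membrane, with 89.4. The genes with no summit within 10 kb included Acsl3, Acsl6, Acad9, Hsd17b10, Pdk3, Ogdhl and Me1. Several have close relatives that were marked, such as Ogdhl, the relative of Ogdh known from brain. The remaining subunit of isocitrate dehydrogenase 3, Idh3g, had 22.4, near the 19.4 of Idh3a. The other pyruvate dehydrogenase subunits, Pdha1 and Pdhx, had 33.3 and 58.6, between Dlat and Pdhb.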

How the data were processed

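The ATAC-seq libraries, 2 of WT and 2 of Dot1L-BKO mice, came from BAT nuclei. The deposited values are −log10 q-values of peaks from MACS2, each at the position of the summit. Per the labels and the study's methods, the authors aligned paired-end reads to mm10 in Partek Flow and called peaks that passed a q-value of 0.05 and a fold enrichment of 2.0 with the ATAC setting. The submitters' processing notes name bcl2fastq 2.2, cutadapt 1.2.1, CASAVA, BWA and MACS2 2.1.1. A shift of reads for the transposase, and the treatment of reads with several matches or from mitochondria, are not given in the sources used here. A single list covers the 4 libraries, so that depth and the precision per library are unknown. The 4 RNA-seq libraries were left out.

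Summits were placed against RefSeq mRNAs of mm10 (GRCm38) on chromosomes 1 to 19, X and Y, from which the printed sequences were also read. A promoter summit lay within 1 kb of any TSS of a gene with a curated mRNA. For all genes the promoter sequence was taken at the most upstream TSS, and for the 38 genes at the TSS nearest the promoter summit. The gene body ran from the first to the last base of these mRNAs. Genes were found by symbol, and all of them matched.

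The genes, lists and motifs were chosen with earlier results of these data known. Named were all 38 genes, genes that share a promoter summit with them, and, of the other pathway genes, the 3 with the highest score and those with no summit within 10 kb (1 gene is not reported here), with Acot1, Idh3g, Pdha1 and Pdhx added after their values were seen. Sequences were shown for the 3 highest and the lowest score of each group and 1 shared promoter, passing over windows in a UTR and that of Pdhb. No test was made, since genes are not replicates. Alternatives changed the score minimum, the window, the transcripts and shared or neighbouring summits. The counting was tested on simulated summits. Python 3.11.15, pysam 0.24.0, numpy 2.4.6, matplotlib 3.10.9 and blastn 2.17.0 were used.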

Additional observations from a re-analysis of the deposited data

How the results depend on the processing

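The alternatives were a score of at least 5 or 10, summits within 500 bp merged, all annotated transcripts, a window of 500 bp, of 5 kb or of 1 kb upstream to 100 bp downstream, and leaving out summits within 1 kb of the TSS of another gene. A count or median was taken to have moved where it changed by over 1.5 times, since no replicate spread exists. Of 59 values under alternatives, 51 had not moved by this limit. Among them, the count of genes with a promoter summit fell from 37 to 26 with a score of at least 10. It fell to 25 with 1 kb upstream to 100 bp downstream, close to the limit. With 1 kb upstream to 100 bp downstream, 15 of 23 oxidation genes had a promoter summit, the citrate cycle median was 41.4, and the difference of medians was -9.69. With a score of at least 10, 9 of 15 citrate cycle genes had one, their median was 51.9, and the difference was -18.9. These medians are over fewer genes by construction. Without summits near another TSS, the oxidation median was 16.7 and the difference 3.26, Hadha, Hadhb, Crat, Etfdh and Mdh2 having lost theirs. The alternatives of the difference of medians, and the densities without Acsl1, Pcx or Suclg2, were added after seeing the data. Replicates could not be left out in turn, as no library has values of its own. No paired analysis was possible because every peak has 1 value for the 4 libraries together.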
